A study of Mus musculus with 24 samples.

Results

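CD8+ T cells recovered from the small intestine 4 days after transplantation were compared with the same kind of cell taken from the graft on day 0. The members were chosen by sample title: 5 small intestine arrays and 4 graft arrays, 9 of the 24 arrays of the study. The other 15 arrays hold cells of blood, liver and lung on day 4, with 5 arrays each, and are used here as a second reference for the intestine. All day 4 cells came from irradiated Act-mOVA recipients (C57Bl/6-Tg(CAG-OVA)-916Jen/J), female mice of 8 to 16 weeks that express ovalbumin from a CAG promoter. These mice received 11 Gy in 2 doses, then 3000000 bone marrow cells and 15000000 splenocytes of OT-I donors, and had acute graft versus host disease. The T cells studied were CD8+ OT-I cells of CD45.1 donors, whereas every other graft cell and the recipients carried CD45.2. Selection was magnetic, with antibody to CD45.1 as the only gate. The labels describe the graft T cells as naive and give the graft arrays the same age range of 8 to 16 weeks. They do not say whether each array is a separate mouse, so the p-values measure only the spread between these arrays.

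OT-I T cells carry a transgenic receptor for an ovalbumin peptide shown on MHC class I. A naive CD8+ T cell that meets its antigen divides, changes its metabolism, makes granzymes and interferon gamma, and exchanges lymph node homing molecules for receptors of inflamed tissue. In graft versus host disease the small intestine is a main target organ, and donor T cells enter it through integrin alpha 4 beta 7 and the chemokine receptor CCR9.

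Each value below is a level: the log2 signal of a gene's probe minus the 75th percentile of its array, so that 0 is that percentile. A difference of 1 is a 2-fold change. A gene was called when limma's adjusted p was under 0.05 in a fit over all 24 arrays and 9446 genes. A probe is measured on an array when it is well above background there; where a group measured it on no array, the difference is given as "at least" a fold.

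The intestine arrays were the most spread of the 5 groups. The median SD over genes was 0.606 in intestine and 0.300 in the graft, and between 0.420 and 0.489 at the other sites. Correlations between intestine arrays, over genes, ran from 0.731 to 0.965, against 0.938 to 0.973 in the graft. On the leading principal component, which held 44.7% of the variance, the graft lay between -112 and -96.7. Intestine 1 to 5 lay at -12.7, -42.1, 31.7, -67.5 and 55.0, so intestine 4 was nearest to the graft and intestine 5 farthest. Intestine 4 and 5 stand apart from the rest. Counts over all genes and part of the results below are given with and without them. The 4 graft arrays lay together on a slide without any day 4 array and were scanned on another day than the rest, so slide, scan day and group cannot be told apart in the comparison with the graft. Each of the other 5 slides held 1 array of every day 4 site with the same replicate number. Between 22.6% and 38.6% of probes were well above background per array, which together with the number of arrays limits the precision.

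Genes of the T cell receptor complex overlapped between the groups. Cd3e, a chain of the T cell receptor complex, was at 5.08, 5.01, 5.05 and 5.78 in graft 1 to 4 and at 5.57, 4.93, 6.61, 4.81 and 6.17 in intestine 1 to 5. Cd8a, the CD8 coreceptor, was at 3.94, 3.66, 3.61 and 4.46 in the graft and at 3.85, 2.92, 4.96, 2.15 and 5.23 in the intestine. The groups overlapped for both genes, and neither was called (Cd3e difference 0.39, SE 0.30, limma adjusted p = 0.331, and Cd8a -0.10, SE 0.46, adjusted p = 0.882). Cd4, the coreceptor of helper cells, was measured on every array of both groups, between 0.38 and 0.46 in the graft and between -0.78 and 0.56 in the intestine, and was not called. Of 7 tested helper T cell markers 3 rose and 0 fell, but the list's median difference was -0.28. Their sums were 10.9 to 31.3 in the graft and 59.7 to 189 in the intestine, in units of the 75th percentile. These sums include Tnfrsf4, which is counted below among the activation markers. Foxp3, another member, had a mean of 0.40 in the graft and -0.45 in the intestine. Of 17 tested T cell identity genes, 0 rose and 1 fell, and over 6 scalings up to 5 fell. In a bulk sample, fewer cells of a type and less RNA per cell cannot be told apart.

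Transcripts of other cells differed between the groups and between the intestine arrays. B cell transcripts were high in every graft array. Ms4a1, which encodes CD20, was at 5.57, 5.67, 5.98 and 5.31 in the graft and not well above background on any intestine array, which is at least 86.46-fold lower (limma adjusted p = 9.85e-12). Of 12 tested B cell markers 9 fell and 0 rose, and their summed linear signal was 311 to 385 in the graft and 13.6 to 101 in the intestine, in units of the 75th percentile. Neutrophil and monocyte markers did the same: 14 of 16 fell, and their sum was 502 to 639 in the graft and 77.0 to 137 in the intestine. S100a8, a neutrophil calcium-binding protein, was at 7.08, 6.81, 6.26 and 6.43 in the graft and at -2.41, -2.75, -2.64, -2.58 and -1.06 in the intestine. The 3 tested erythroid markers also fell. Hba-a1, a hemoglobin chain, was uneven in the graft itself, at 0.85, 6.56, 1.41 and 3.85.

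The intestine arrays held transcripts of Paneth cells, the antimicrobial cells of the crypt base. Defa23, an alpha-defensin, was at 0.14, 0.16, 0.37 and 0.05 in the graft and at 7.20, 7.92, 5.43, 8.38 and -0.85 in the intestine. It was high on 4 intestine arrays and below the graft on intestine 5. The Paneth list summed to 42.1 to 94.7 in the graft and to 438, 787, 138, 1230 and 45.8 on intestine 1 to 5, and 5 of its 9 tested members rose. Alpha-defensin genes are near-identical copies, so their probes may share signal. The summed epithelial list ran in the same order at its top, with 553 on intestine 4 and 273 on intestine 2, against 23.4 to 65.9 in the graft and 46.2 on intestine 5. The defining epithelial gene Epcam was well above background on no intestine array, and the keratins Krt8 and Krt19 on 3. Macrophage markers were high on intestine 1 and 2 alone, with sums of 283 and 382 against 28.5 to 97.3 in the graft and 7.92 to 10.5 on the other 3. MHC class II and dendritic cell markers summed to 268 to 306 in the graft and to 310, 383, 72.6, 146 and 49.5 in the intestine. The part of these cells in the results below was not tested.

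**Figure D1:**
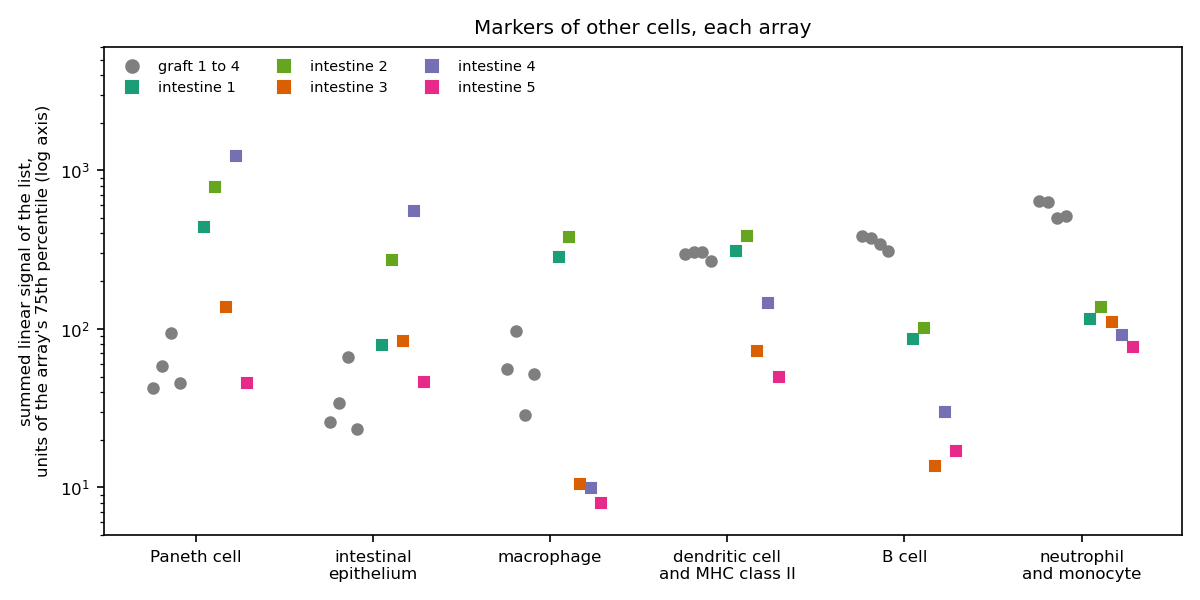
Summed linear signal of 6 lists of markers of other cells on each array (units of the array's 75th percentile, log axis), with graft arrays in grey and intestine 1 to 5 in colour. Paneth and epithelial sums are highest on intestine 4 and 2, macrophage sums on intestine 2 and 1, and B cell and neutrophil sums are higher on all 4 graft arrays than on any intestine array.

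Of 9446 genes, 2098 were higher in the intestine than in the graft (22.2%) and 1194 lower (12.6%). The 5 intestine arrays lay above all 4 graft arrays for 1491 genes (15.8%) and below all of them for 997 (10.6%). Among the called genes, 1393 of the higher and 871 of the lower showed no overlap. Higher genes made up 63.7% of the calls. That split moved with the scaling: it was 42.4% when arrays were scaled on only the probes that every array detected, by their 75th percentile, 40.7% by their median, and 49.8% after quantile normalisation and in the authors' deposited table. The median of all genes was 0.095 here and -0.200, -0.264, -0.078 and -0.077 in those 4. Gene lists are therefore read against the median of all genes, 0.095. Without intestine 4, 1990 of the 2098 higher genes and 1045 of the 1194 lower genes were still called. Without intestine 5 these counts were 1754 and 1036, and 1683 and 915 genes were called both ways. Without both arrays, 2136 genes were higher and 1117 lower.

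Part of the largest differences went with the sequence of the probe. This grouping was chosen after the values were seen, and it is described with no test. Among 124 genes whose probe holds an alternating T and G repeat of at least 10 bases, 112 were lower in the intestine (90.3%) and 1 was higher, with a median difference of -2.33. Among 671 genes whose probe holds 5 G in a row, 155 were higher (23.1%) and 5 lower (0.745%), with a median of 0.48. Over all tested genes 22.2% were higher and 12.6% lower, with a median of 0.095. The G class thus had the usual share of higher genes, and differed in its few lower genes and its median. Probes of the repeat class moved almost as 1 over the 24 arrays: the median correlation of a gene with the rest of its class was 0.987, and it was 0.927 for the G class and 0.412 among the 8601 genes with neither 5 G in a row nor any such repeat of 8 bases or more. Those 24 arrays share a platform, an amplification and 6 slides, and the cause was not tested. Of the 10 genes with the largest falls measured in both groups, 6 have such a repeat (Zfp133-ps, Fdxacb1, Blcap, Atp8a1, Elavl4 and Slc1a4). Of the 10 with the largest rises, Pdgfb, Dot1l and Kcnab2 have 5 G in a row. The stretches below are 30 of the 60 bases of each probe, 5′ to 3′, shown because they are what these genes share. Capitals mark the repeat or the run.
Zfp133-ps: gagttttaaaaaTGTGTGTGTGTGTGTGTG
Blcap: aatgtgtgtTGTGTGTGTGTttacatacca
Elavl4: tccttctgtTGTGTGTGTGTatgtgtacat
Slc1a4: atgtatcaaGTGTGTGTGTGTatgtgtgtg
Tnfrsf9: taaaatcaGTGTGTGTGTGTGTGTGTGTGT
Pdgfb: tggtgattatatttttGGGGGctttctttt
Dot1l: cgcgcacctttcGGGGGttaagcctcgata
Kcnab2: aggggatggcatcagttaGGGGGacatcca
Pdcd1: aaggaaaGGGGGatataaccttgacgcaaa
By the coordinates in the files (mm9) the probes of Tnfrsf9 and Zfp133-ps lie at chr4:150319582-150319641 and chr2:144293375-144293434, both on the plus strand, and that of Pdcd1 at chr1:95935064-95935123 on the minus strand. The files do not say which exon or UTR a probe lies in. Without all probes of these 2 classes, 1962 genes were higher and 1086 lower, an alternative added after the data were seen.

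**Figure D2:**
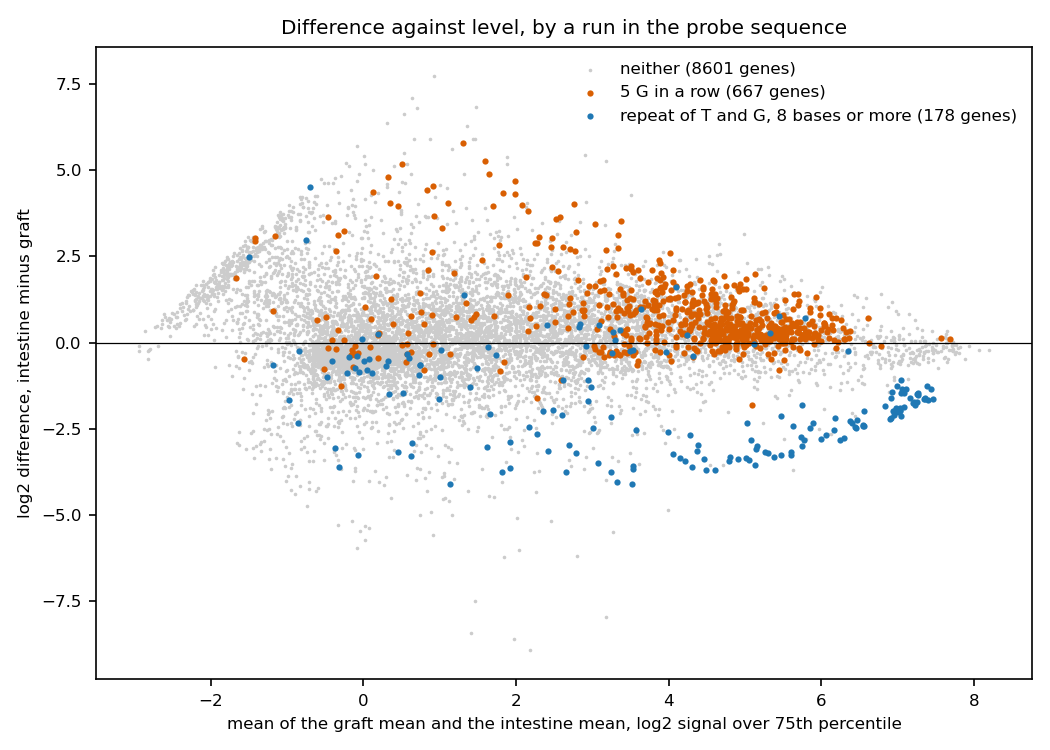
Difference of each of 9446 tested genes, intestine minus graft (log2), against its mean level in both groups (log2 signal over the array's 75th percentile). Genes whose probe holds a repeat of T and G of at least 8 bases (blue) lie mostly below 0, with 131 of 178 called lower, and those with 5 G in a row (orange) mostly above it; genes with both are drawn in blue.

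Tnfrsf9 had probes that disagreed. It encodes 4-1BB, a costimulatory receptor of activated CD8+ T cells. Its brightest probe, with a repeat of 22 bases, was at 6.83, 7.17, 7.71 and 7.20 in the graft and at 4.44, 4.22, 3.52, 3.63 and 4.08 in the intestine. Read from it alone, Tnfrsf9 fell by 3.25 (SE 0.45, limma adjusted p = 6.81e-06). The gene's other probe, which has no such run, was well above background on none of the graft arrays, at -2.62, -2.89, -3.36 and -2.63. On intestine 1 to 5 it was at 3.82, 3.37, 4.85, 1.53 and 3.17, and it was at least 16.62-fold higher (adjusted p = 4.25e-09). The direction of Tnfrsf9 therefore depends on the probe, and it is counted below as lower only because the brightest probe stands for each gene.

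Effector molecules of cytotoxic T cells rose, with 1 granzyme going the other way. Of 13 tested cytotoxic genes 8 rose and 1 fell, and the list's median difference was 0.99. Without intestine 5, 5 rose and 1 fell, and without intestine 4, 9 rose and 1 fell. Over 6 scalings 4 to 9 rose and 1 fell. Granzyme B, a protease that triggers apoptosis in the target cell, changed most. Gzmb was at -2.70, -2.83, -2.91 and 0.67 in graft 1 to 4 and at 5.16, 3.78, 6.20, 3.38 and 5.89 in intestine 1 to 5. Every intestine array lay above every graft array, and graft 4 was the only graft array that measured it. The difference was 6.82 (SE 0.70, limma adjusted p = 1.81e-07). Serpinb6b, a serpin of the family that inhibits granzymes, was at 0.68, 1.04, 0.03 and 0.45 in the graft and at 5.86, 5.45, 7.26, 3.97 and 6.50 in the intestine. The groups were far apart, and the difference was 5.26 (SE 0.47, adjusted p = 2.61e-08). Fasl, a ligand that kills through the receptor Fas, was at -0.65, -0.81, -0.56 and -0.71 in the graft and at 2.16, 0.48, 2.73, 0.64 and 3.41 in the intestine, a difference of 2.57 (SE 0.51, adjusted p = 0.000421).

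Granzyme A was already high on the graft arrays. Gzma was at 5.07, 4.50, 5.84 and 6.82 in the graft and at 6.88, 6.19, 7.39, 6.20 and 6.37 in the intestine. Its groups overlapped through graft 4, and the rise of 1.05 (SE 0.35, limma adjusted p = 0.0247) lost its call in 9 of 41 alternatives, among them without graft 2 (adjusted p = 0.137), graft 1 (0.0888), intestine 3 (0.0722) or intestine 1 (0.0537). Granzyme M, a granzyme typical of innate lymphocytes, fell. Gzmm was at 4.55, 4.93, 2.82 and 3.20 in the graft and at -0.08, -0.49, -1.54, -0.14 and -0.69 in the intestine, with no overlap, and fell by 4.46 (SE 0.55, adjusted p = 1.87e-06). The graft arrays that held it also held markers of other cells, as given above. Of 6 tested NK cell markers, a list that includes Gzma, 1 rose and 3 fell. The median difference of that list was -2.05, against 0.095 over all genes. The part of NK cells in the values of Gzma and Gzmm, and in the falls of Ccl5 and Eomes given below, was not tested. Ctsc, the protease that activates granzymes, was between 0.91 and 1.28 in the graft and at 3.36, 3.42, 2.26, 0.65 and 3.03 in the intestine. Intestine 4 was the only intestine array below the graft (difference 1.45, SE 0.42, adjusted p = 0.0106, 6.84e-05 without intestine 4, and 0.062 when scaled on detected probes). Perforin, named here after its values were seen, was low in both groups. Prf1 was at -0.01, -1.17, -1.68 and -0.39 in the graft and at -1.47, -2.60, -0.79, -2.47 and -0.04 in the intestine, measured on 1 array of each group, and was not called (difference -0.66, SE 0.59, adjusted p = 0.400).

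Of 7 tested cytokines 2 rose and 1 fell, near the shares over all genes (22.2% higher and 12.6% lower). Interferon gamma, the main effector cytokine of CD8+ T cells, was at -1.46, -2.70, -3.25 and 1.42 in the graft and at 4.97, 4.47, 5.78, 2.54 and 4.32 in the intestine. Every intestine array exceeded graft 4, the highest of the graft, and Ifng rose by 5.91 (SE 0.74, limma adjusted p = 2.20e-06). Il17a, a cytokine of type 17 cells, was well above background on none of the graft arrays and was at 2.46, 0.20, 1.55, 1.87 and 3.02 in the intestine, at least 5.768-fold higher (adjusted p = 0.000342). Il16, a chemoattractant cytokine, was at 1.06, 0.38, 0.38 and 0.83 in the graft and at -2.83, -2.64, -2.75, -2.44 and 1.13 in the intestine. Intestine 5 alone kept a graft-like value, and Il16 fell by 2.57 (SE 0.68, adjusted p = 0.00518, and 4.83e-05 without intestine 5). Tnf was at 0.01, -0.23, 0.09 and 0.39 in the graft and at 0.68, 1.26, -1.01, -0.33 and -1.09 in the intestine, overlapping and not called (difference -0.17, SE 0.37, adjusted p = 0.745). Il2, the T cell growth factor, was well above background on no graft and no intestine array.

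Among 6 tested chemokines 1 rose and 1 fell, also near the shares over all genes (22.2% higher and 12.6% lower). Xcl1, which attracts cross-presenting dendritic cells, was at 1.15, 2.06, 0.55 and 0.62 in the graft and at 4.83, 4.50, 5.02, 4.29 and 4.27 in the intestine. The intestine arrays were close together here, and the rise was 3.49 (SE 0.51, limma adjusted p = 1.66e-05). Ccl5, a chemokine stored by memory CD8+ T cells, was at 6.90, 7.19, 6.80 and 7.10 in the graft and at 5.23, 3.64, 6.75, 3.39 and 6.27 in the intestine. It fell by 1.94 (SE 0.60, adjusted p = 0.0141), with intestine 3 just below the lowest graft array. The adjusted p of Ccl5 was 0.0527 in a fit on the 9 arrays alone and 0.0553 under normexp background correction.

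Most costimulatory receptors rose, 5 of 7 with 1 lower, and 3 of 7 cytokine receptor chains rose and 1 fell. Of 19 tested activation markers, with Tnfrsf9 read from its brightest probe, 8 rose and 2 fell, and without the probes that hold a run or repeat 9 of 18 rose and 1 fell. Icos, a relative of CD28, was at 0.26, 1.13, 0.89 and 1.25 in the graft and at 4.88, 3.88, 6.14, 3.57 and 6.27 in the intestine. Tnfrsf4, which encodes OX40, was at 1.01, 1.72, 1.65 and 1.09 in the graft and at 5.59, 5.22, 7.32, 4.32 and 5.76 in the intestine. Both were without overlap, with differences of 4.07 for Icos (SE 0.51, limma adjusted p = 2.16e-06) and 4.28 for Tnfrsf4 (SE 0.55, adjusted p = 3.54e-06). Tnfrsf18, which encodes GITR, was between 2.40 and 2.92 in the graft and at 4.99, 4.51, 6.46, 3.49 and 5.41 in the intestine (difference 2.25, SE 0.50, adjusted p = 0.00128). Cd28 itself was between 1.41 and 2.77 in the graft and at 4.14, 3.14, 5.93, 3.32 and 5.95 in the intestine (difference 2.46, SE 0.48, adjusted p = 0.000363). Il2ra, the alpha chain of the IL-2 receptor, was not well above background in the graft and was at 2.92, 1.72, 3.06, 0.14 and 1.39 in the intestine. The rise was at least 5.874-fold (adjusted p = 8.18e-06). Il10ra, a chain of the IL-10 receptor, fell by 1.26 (adjusted p = 0.0379), a call lost in 11 of 41 alternatives, without graft 1 (adjusted p = 0.0827), graft 2 (0.0805), graft 4 (0.085), intestine 3 (0.118) or intestine 4 (0.0831) among them.

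Inhibitory receptors and their relatives rose alongside: 7 of 12 tested genes rose and 0 fell, with a median difference of 1.74. Without intestine 5, 7 rose and 1 fell, and over 6 scalings 6 to 7 rose and up to 2 fell. Without the probes that hold a run or repeat 6 of 11 rose and 0 fell. A ligand of the list lay below the graft on all 5 intestine arrays but was not called. Lag3, which binds MHC class II and dampens T cells, was well above background on none of the graft arrays, at -2.49, -1.41, -2.31 and -2.12. It was at 3.49, 2.75, 5.36, 2.83 and 4.64 in the intestine, which is a rise of at least 22.95-fold (adjusted p = 4.90e-09 in limma). Havcr2, which encodes TIM-3, was also unmeasured in the graft and was at 0.84, 0.41, 0.49, -2.05 and 1.41 in the intestine. Only intestine 4 lacked it, and it was at least 1.903-fold higher (adjusted p = 0.000545). Tigit was measured on 3 intestine arrays and none of the graft, at -0.10, -1.89, 1.46, -1.46 and 2.33 (at least 1.711-fold higher, adjusted p = 0.00452). Pdcd1, which encodes PD-1, was at 3.35, 4.48, 5.42 and 3.15 in the graft and at 5.58, 5.02, 6.42, 5.97 and 6.64 in the intestine. Its groups overlapped through graft 3, and its probe holds 5 G in a row, so its difference of 1.83 (SE 0.39, adjusted p = 0.000749) rests on a probe of the class described above. Pdcd1lg2, the PD-1 ligand PD-L2, was unmeasured in the graft and at 1.16, 1.00, 2.81, 0.98 and 2.82 in the intestine (at least 5.508-fold higher, adjusted p = 3.16e-05). Tox, a transcription factor of chronically stimulated T cells, was at -0.47, 0.47, 0.47 and 0.98 in the graft and at 2.19, 1.65, 3.29, 1.30 and 4.62 in the intestine, a difference of 2.25 (SE 0.50, adjusted p = 0.00114).

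**Figure D3:**
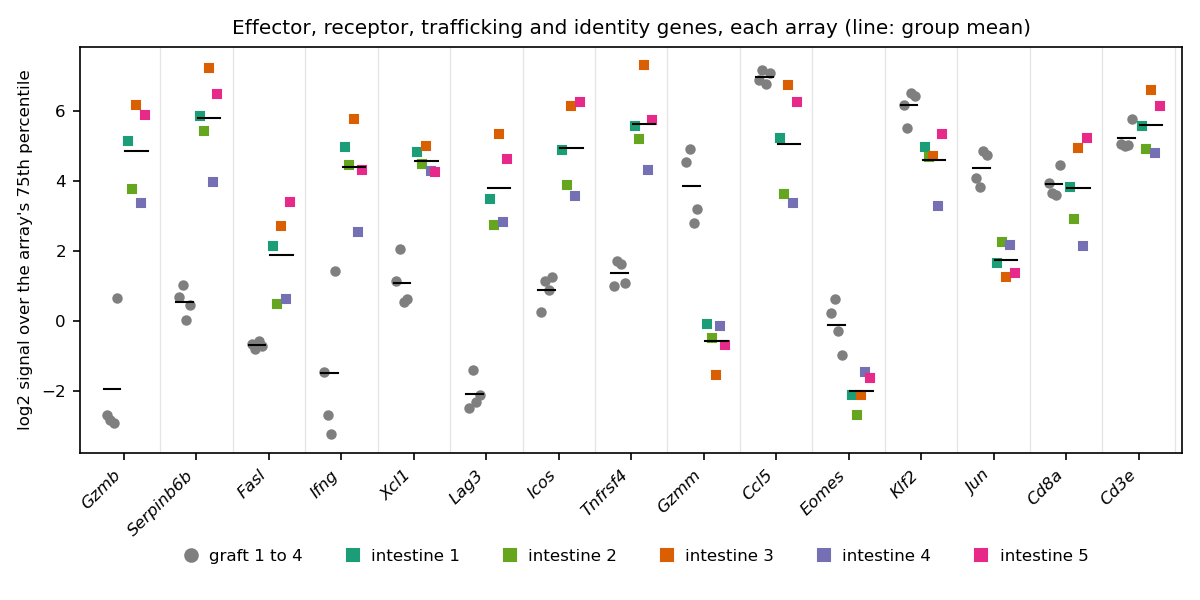
Level of 15 genes on each array (log2 signal over the array's 75th percentile), with graft arrays in grey, intestine 1 to 5 in colour and a line at each group mean. Gzmb, Serpinb6b, Ifng, Lag3, Icos and Tnfrsf4 are higher on all 5 intestine arrays than on any graft array, Gzmm, Eomes and Jun are lower on all 5, and Cd8a and Cd3e overlap.

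Among 18 tested effector transcription factors 7 rose and 1 fell. Bhlhe40, a factor needed for cytokine production, was at 0.17, -0.69, 0.53 and 0.66 in the graft and at 4.62, 3.97, 4.33, 2.65 and 4.92 in the intestine. It rose by 3.93 (SE 0.72, limma adjusted p = 0.000191). Myb, a factor of proliferating and stem-like lymphocytes, was not well above background in the graft and was at 2.40, 2.10, 2.54, 1.50 and 2.78 in the intestine, at least 7.856-fold higher (adjusted p = 7.22e-06). Batf, an AP-1 factor of effector differentiation, was between 2.35 and 2.77 in the graft and at 4.53, 3.44, 5.63, 3.25 and 5.34 in the intestine (difference 1.86, SE 0.35, adjusted p = 0.000282). Nfil3 also rose, by 2.33 (SE 0.44, adjusted p = 0.000234). Eomes, a T-box factor of memory cells, was at 0.24, 0.62, -0.28 and -0.98 in the graft and at -2.12, -2.70, -2.11, -1.47 and -1.63 in the intestine. It lay below the graft on all 5 intestine arrays and fell by 1.91 (SE 0.37, adjusted p = 0.000327).

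Genes of the naive state fell or did not pass the test: 6 of 19 tested fell and 0 rose, with a median of -0.89. Klf2, a factor of quiescence that maintains the exit receptor S1pr1, was at 6.20, 5.53, 6.54 and 6.44 in the graft and at 4.97, 4.70, 4.73, 3.30 and 5.36 in the intestine. All 5 intestine arrays lay below the graft, and Klf2 fell by 1.56 (SE 0.40, limma adjusted p = 0.00406). Il6ra, the IL-6 receptor, was at 3.18, 2.61, 3.52 and 4.36 in the graft and at 0.15, 0.05, -2.69, -2.43 and -1.02 in the intestine, a fall by 4.61 (SE 0.89, adjusted p = 0.000338). Klf3 fell by 2.33 (adjusted p = 0.000517), Txk, a kinase of T cell receptor signalling, by 1.42 (adjusted p = 0.00156), and Actn1 was at least 2.214-fold lower (adjusted p = 0.000474). Over 6 scalings between 6 and 12 of the 19 genes fell and at most 1 rose.

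Gut homing and residency genes did not move together. Of 25 tested, 3 rose and 4 fell, and the median of 0.08 changed sign with the scaling, from -0.28 to 0.23. The gut homing genes are named here after their values were seen. Itga4, the integrin alpha 4 chain, was at 3.76, 3.87, 3.62 and 4.02 in the graft and at 3.81, 2.92, 4.42, 1.99 and 5.08 in the intestine. Itgb7, its beta 7 partner, was at 6.35, 6.30, 6.55 and 6.77 in the graft and at 6.64, 5.95, 7.67, 5.94 and 6.68 in the intestine. Both overlapped, and neither was called (Itga4 difference -0.17, SE 0.41, limma adjusted p = 0.761, and Itgb7 0.08, SE 0.28, adjusted p = 0.829). Ccr9 was uneven in the graft, at 1.57, 1.99, 3.24 and 4.26, and was at 1.87, 0.41, 2.37, -0.11 and 0.13 in the intestine (difference -1.84, SE 0.87, adjusted p = 0.107). It passed the threshold with a lower level in the intestine after quantile normalisation (-2.28, adjusted p = 0.0463), in the authors' deposited table (adjusted p = 0.0464), when scaled on detected probes (adjusted p = 0.0419 and 0.0407) and with the replicate block (adjusted p = 0.0455). Itgae, the CD103 chain of intraepithelial T cells, and Gpr15, a receptor for the large intestine, were well above background on no intestine array. Litaf was the clearest of the retention genes, between 1.62 and 2.13 in the graft and at 5.07, 5.15, 5.42, 3.12 and 4.85 in the intestine (difference 2.85, SE 0.44, adjusted p = 3.13e-05). Rgs1, which restrains chemokine signalling, rose by 1.92 (SE 0.59, adjusted p = 0.0147, and 0.0576 without graft 2), and Itgal, the LFA-1 chain, by 0.92 (SE 0.33, adjusted p = 0.032). Itgal lost its call in 13 of 41 alternatives, which include leaving out graft 1 (adjusted p = 0.125), graft 2 (0.0623), graft 3 (0.0565), intestine 1 (0.0767), intestine 3 (0.0537) or intestine 5 (0.0953). Cxcr5, a receptor for B cell follicles, fell by 2.86 (SE 0.73, adjusted p = 0.00399), and Itga6 by 1.12 (SE 0.31, adjusted p = 0.00655). Cxcr5 is also a B cell gene, and B cell markers fell with it. Of 10 retinoic acid and TGF beta genes 1 rose and 1 fell. Dhrs3, a retinaldehyde reductase, rose by 2.53 (SE 0.73, adjusted p = 0.00988), and the TGF beta receptor Tgfbr2 fell by 1.09 (SE 0.28, adjusted p = 0.00399).

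Cell cycle genes rose strongly against the graft. Of 38 tested genes of G1 and S phase 27 rose and 3 fell, with a median of 1.57, and of 31 mitosis genes 17 rose and 0 fell, with a median of 1.65. Dut, which keeps uracil out of DNA, was well above background on none of the graft arrays, at -2.79, -1.89, -2.83 and -2.78. It was at 2.91, 2.20, 3.11, 1.41 and 3.46 in the intestine, at least 10.02-fold higher (limma adjusted p = 3.50e-10). Tk1, thymidine kinase, was likewise unmeasured in the graft and at 3.47, 2.69, 3.97, 2.25 and 4.06 in the intestine (at least 15.95-fold higher, adjusted p = 1.38e-08). Rrm2, a subunit of ribonucleotide reductase, was at -2.44, 1.03, -1.41 and -2.34 in the graft, where graft 2 alone measured it, and at 3.44, 2.92, 3.01, 3.23 and 3.83 in the intestine. It rose by 4.58 (SE 0.50, adjusted p = 4.48e-07). The condensin subunit Ncaph was unmeasured in the graft and at 2.99, 2.47, 3.05, 1.34 and 4.02 in the intestine (at least 11.17-fold higher, adjusted p = 4.90e-09). Cyclin A2, which drives S phase and entry into mitosis, was at -2.41, 0.78, -3.17 and -2.49 in the graft and at 2.92, 2.40, 3.33, 2.64 and 4.03 in the intestine. Graft 2 was again the highest graft array, and Ccna2 rose by 4.89 (SE 0.56, adjusted p = 8.34e-07). Cdc20, the activator of the anaphase-promoting complex, was at -1.92, 1.11, -3.36 and -0.32 in the graft and at 3.53, 3.26, 3.62, 3.85 and 4.55 in the intestine, a rise of 4.88 (SE 0.57, adjusted p = 1.09e-06).

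The 3 cell cycle genes that fell were Cdkn1b, Ccnd3 and Tyms. Cdkn1b encodes p27, an inhibitor of cyclin-dependent kinases that holds resting T cells out of the cycle. It was at 2.51, 2.60, 2.96 and 2.78 in the graft and at 0.99, 0.34, 1.27, 0.65 and 2.06 in the intestine, and fell by 1.65 (SE 0.29, limma adjusted p = 0.000122). Cyclin D3 was at 3.99, 3.91, 4.08 and 4.00 in the graft and at 2.01, 2.02, 2.47, 1.64 and 3.98 in the intestine. Intestine 5 had the graft's level and the other 4 did not, and Ccnd3 fell by 1.57 (SE 0.40, adjusted p = 0.00408, and 0.000159 without intestine 5, but 0.0728 under normexp background correction). Tyms, thymidylate synthase, fell by 1.66 (adjusted p = 0.00137) on a probe with a repeat of T and G, measured on 1 intestine array.

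Promoters of mitosis genes often hold a CCAAT box and a cell cycle homology region (CHR), elements bound by NF-Y and by the MuvB complexes. They were searched as the letters CCAAT and TTTGAA on both strands, in the 250 bases before the annotated start of 27025 genes in RefSeq's GRCm38.p6 table. CCAAT was in 37.5% of all promoters, in 12 of 16 promoters of mitosis genes that rose and in 8 of 10 that were not called. TTTGAA was in 18.3% of all, in 6 of the 16 and in 2 of the 10. Both were in 6.45% of all, in 6 of the 16 and in 2 of the 10. A match is a match of letters, not a shown site. The promoters of Cdc20 and of Kif22, a chromosome-bound kinesin, are shown 5′ to 3′ with both motifs in capitals (ATTGG and TTCAAA on the other strand), because the 2 genes rose against the graft and each has TTTGAA close to its start. Cdc20 lies at chr4:118437344-118437593 and Kif22 at chr7:127042421-127042670 (GRCm38.p6), both on the minus strand.
Cdc20: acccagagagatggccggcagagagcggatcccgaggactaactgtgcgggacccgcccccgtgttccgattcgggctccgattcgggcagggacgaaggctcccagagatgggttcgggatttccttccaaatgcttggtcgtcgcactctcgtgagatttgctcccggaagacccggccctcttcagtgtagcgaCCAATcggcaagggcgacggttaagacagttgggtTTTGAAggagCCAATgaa
Kif22: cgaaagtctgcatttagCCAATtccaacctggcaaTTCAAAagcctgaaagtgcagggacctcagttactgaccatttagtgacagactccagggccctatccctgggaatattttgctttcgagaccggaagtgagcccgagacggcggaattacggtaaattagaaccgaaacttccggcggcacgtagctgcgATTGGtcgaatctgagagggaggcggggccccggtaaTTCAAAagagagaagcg
Kif22 was at -2.41, -0.18, -2.12 and -2.14 in the graft and at 1.39, 0.32, 1.42, 1.18 and 2.74 in the intestine, a rise of 3.12 (SE 0.54, limma adjusted p = 0.000111).

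Metabolic genes rose in several pathways at once. Of 22 tested genes of glycolysis and the pentose phosphate pathway 12 rose and 2 fell (median 0.88). Of 49 genes of oxidative phosphorylation 26 rose and 3 fell (median 0.79). Of 13 genes of fatty acid oxidation 10 rose and 0 fell (median 1.48). Over 6 scalings 9 to 12, 18 to 29 and 5 to 10 genes of these lists rose, and up to 4, 5 and 1 fell. Without intestine 5, 12, 22 and 7 rose, and without intestine 4, 14, 31 and 11. Tpi1, triose phosphate isomerase, was the most even: 2.77, 3.29, 2.63 and 3.03 in the graft and 5.37, 5.26, 5.38, 5.34 and 5.33 in the intestine, with all 5 intestine arrays alike. The rise was 2.41 (SE 0.21, limma adjusted p = 2.54e-08). Hk2, the inducible hexokinase, was not well above background in the graft and was at 2.87, 2.67, 2.11, 2.34 and 1.96 in the intestine, at least 8.556-fold higher (adjusted p = 2.68e-06). The glucose transporter Slc2a1 rose by 2.34 (SE 0.43, adjusted p = 0.00019). Taldo1 of the pentose phosphate pathway fell by 0.89 (SE 0.21, adjusted p = 0.00226), a call lost under normexp background correction (adjusted p = 0.0742). Pdk1, a kinase that restrains pyruvate oxidation, fell by 0.86 (SE 0.28, adjusted p = 0.0211), and was not called without graft 1 (adjusted p = 0.061) or graft 4 (0.0506).

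In the respiratory chain, Uqcrc1 of complex III was at 2.55, 2.40, 2.15 and 2.89 in the graft and at 4.68, 4.57, 5.86, 4.38 and 4.86 in the intestine, a rise of 2.37 (SE 0.27, limma adjusted p = 6.93e-07). Cyc1, cytochrome c1 of the same complex, rose by 1.62 (SE 0.22, adjusted p = 5.33e-06). Other subunits fell: Ndufa5 of complex I was between 5.31 and 5.55 in the graft and between 4.07 and 4.72 in the intestine (fell by 1.01, SE 0.19, adjusted p = 0.00029), and Uqcrb of complex III fell by 0.90 (SE 0.17, adjusted p = 0.00034). Cpt1a, which admits fatty acids to mitochondria, was not well above background in the graft and was at 1.74, 1.99, 2.21, 0.60 and 3.31 in the intestine. It was at least 6.398-fold higher (adjusted p = 6.30e-06). Acadl, an enzyme of beta oxidation, was between -0.86 and -0.32 in the graft and at 1.66, 1.07, 2.71, 0.75 and 2.26 in the intestine (difference 2.33, SE 0.37, adjusted p = 3.76e-05).

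Amino acid and sterol genes also rose, in numbers that moved with the scaling. Over 6 scalings 7 to 13 of 19 amino acid genes rose and 1 fell. Of 11 cholesterol genes 2 to 6 rose and 0 to 2 fell. Of 19 tested genes of the amino acid response and its transporters 12 rose and 1 fell, with a median of 1.18, and the gene that fell, Slc1a4, has a repeat probe. Asns, asparagine synthetase, was at -2.73, 0.09, -3.32 and -2.68 in the graft and at 2.74, 3.03, 2.88, 3.73 and 2.47 in the intestine (difference 5.13, SE 0.55, limma adjusted p = 3.39e-07). Intestine 4, low for most genes that rose, was the highest for Asns. Psat1, of serine synthesis, rose by 3.26 (SE 0.38, adjusted p = 1.04e-06), and Slc38a1, a glutamine transporter, by 2.43 (SE 0.42, adjusted p = 0.000111). Gldc, the glycine decarboxylase, had a rise among the largest of the comparison. It was well above background on none of the graft arrays and was at 3.88, 3.04, 6.19, 2.55 and 5.24 in the intestine, at least 29.58-fold higher (adjusted p = 7.78e-06). Of 11 tested cholesterol genes 6 rose and 0 fell. Idi1, an early enzyme of sterol synthesis, was between 1.81 and 2.23 in the graft and at 3.60, 3.46, 3.49, 3.65 and 2.86 in the intestine (difference 1.37, SE 0.30, adjusted p = 0.00112), with intestine 5 the lowest. Proteasome subunits rose in 12 of 23 tested genes, with 0 lower and a median of 0.76. Psma1 of the core rose by 1.31 (SE 0.23, adjusted p = 0.000121) and Psmc1 of the cap by 1.20 (SE 0.20, adjusted p = 8.82e-05).

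Metallothioneins, small proteins that bind zinc and copper, were among the strongest rises. Of 8 tested genes for metallothioneins and zinc transport 5 rose and 0 fell, with a median of 1.67, and this count was the same under all 6 scalings. Mt2 was well above background on none of the graft arrays, at -1.11, -2.50, -3.14 and -2.44, and was at 3.75, 4.60, 4.06, 3.74 and 1.90 in the intestine. Intestine 5 was the lowest, and the rise of Mt2 was at least 19.95-fold (adjusted p = 8.34e-07 in limma). Mt1 was at 0.51, 0.05, -0.97 and -0.18 in the graft and at 3.77, 4.29, 3.73, 3.25 and 1.96 in the intestine, in the same order at both ends, and rose by 3.55 (SE 0.56, adjusted p = 3.71e-05). The zinc importer Slc39a4, best known from the small intestine, was at 0.50, 0.35, 0.90 and 1.18 in the graft and at 2.25, 2.04, 3.28, 3.03 and 2.33 in the intestine, a rise of 1.85 (SE 0.39, adjusted p = 0.000749). Slc39a4 is also a gene of enterocytes, whose marker sums are given above, and their part in its rise was not tested. Slc39a1 rose by 1.48 (SE 0.33, adjusted p = 0.00134), and Slc39a14 was at least 1.249-fold higher (adjusted p = 0.000828).

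The zinc-sensing factor MTF-1 binds metal response elements, whose core was searched as TGCNCNC on both strands. It was in 47.2% of 27025 promoters of 250 bases, so a single match says little. Within the 250 bases before the annotated start Mt2 holds 5 and Mt1 holds 1, and 0.392% of all promoters hold at least 5. These counts depend on where that start is placed. Bases outside this window were not searched, so elements there would be missed. Both are shown in full from RefSeq's GRCm38.p6 table, 5′ to 3′ on the plus strand, with the matches in capitals, because the 2 neighbouring genes rose together. Mt2 lies at chr8:94172368-94172617 and Mt1 at chr8:94178839-94179088. The match of Mt1 is 23 bases before its annotated start.
Mt2: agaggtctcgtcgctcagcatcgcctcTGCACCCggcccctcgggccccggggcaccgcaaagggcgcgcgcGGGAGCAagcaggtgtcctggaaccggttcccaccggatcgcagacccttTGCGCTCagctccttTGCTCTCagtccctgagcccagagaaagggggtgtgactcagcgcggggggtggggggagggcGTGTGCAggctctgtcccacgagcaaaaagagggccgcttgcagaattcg
Mt1: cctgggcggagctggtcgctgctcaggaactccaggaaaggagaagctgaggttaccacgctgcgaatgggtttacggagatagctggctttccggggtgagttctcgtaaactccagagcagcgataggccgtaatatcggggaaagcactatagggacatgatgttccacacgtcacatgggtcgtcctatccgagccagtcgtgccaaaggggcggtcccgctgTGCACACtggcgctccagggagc

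**Figure D4:**
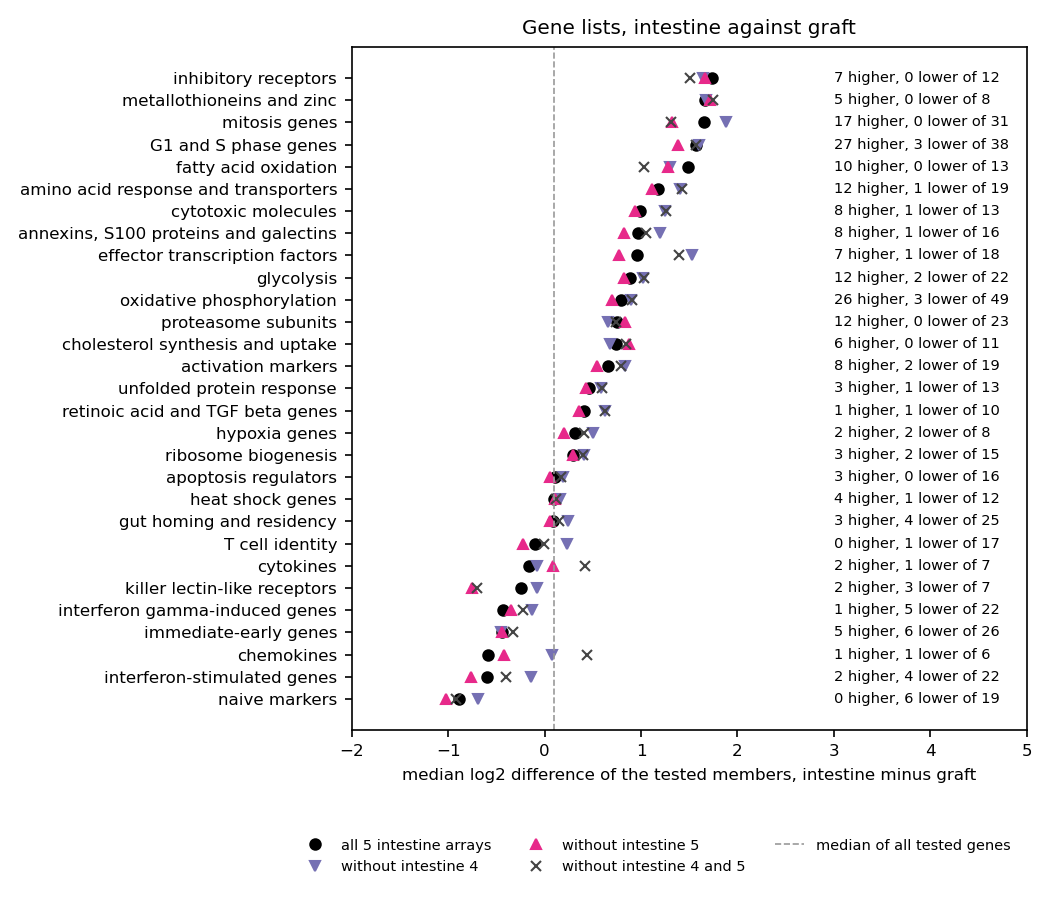
Median difference of the tested members of each list of T cell and pathway genes (lists of other cells are not drawn), intestine minus graft (log2), with all 5 intestine arrays (black) and without intestine 4, intestine 5 or both; the text at right counts the members called higher and lower with all arrays. Inhibitory receptors, metallothioneins and cell cycle lists lie highest of those drawn and naive markers lowest, against a median of 0.095 over all tested genes (dashed line).

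Immediate-early genes answer receptor stimulation within minutes. Of 26 tested 5 rose and 6 fell, beside 22.2% of all genes higher and 12.6% lower. Over 6 scalings 3 to 6 rose and 5 to 12 fell. Jun was at 4.08, 3.84, 4.86 and 4.75 in the graft and at 1.66, 2.26, 1.27, 2.17 and 1.37 in the intestine, with no overlap, and fell by 2.64 (SE 0.36, limma adjusted p = 6.72e-06). Egr1 was at 5.58, 4.83, 5.78 and 5.76 in the graft and at 3.70, 4.62, 0.79, 2.21 and 2.42 in the intestine (fell by 2.74, SE 0.70, adjusted p = 0.00388). Intestine 1 and 2, the arrays with macrophage transcripts, were the highest of the intestine for Egr1. Ier2 fell by 1.58 (SE 0.20, adjusted p = 2.64e-06). The genes that rose were other members of the response. Dusp4, a phosphatase of MAP kinases, was not well above background in the graft and was at 3.13, 2.15, 2.63, 1.21 and 2.84 in the intestine (at least 8.576-fold higher, adjusted p = 0.000741). Fosl2, an AP-1 member, rose by 2.26 (SE 0.47, adjusted p = 0.000677), and Nfkb2, a subunit of NF-kB, by 2.07 (SE 0.53, adjusted p = 0.00394). Nr4a2 rose by 1.26 on a probe with 5 G in a row (SE 0.47, adjusted p = 0.041), a call lost in 16 of 41 alternatives, among them without graft 1 (adjusted p = 0.158), graft 4 (0.17), intestine 1 (0.0547), intestine 4 (0.0822) or intestine 5 (0.0669). Its other probe, with no run and unmeasured in the graft, was at least 4.88-fold higher (adjusted p = 0.000357).

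Few interferon response genes rose, beside 22.2% of all genes higher and 12.6% lower. The median was -0.60 for interferon-stimulated genes and -0.43 for genes induced by interferon gamma, against 0.095 over all genes. Without intestine 4 these medians were -0.14 and -0.13, against 0.159. Of 22 tested interferon-stimulated genes 2 rose and 4 fell, whereas without intestine 4 there were 5 and 2, and of 22 genes induced by interferon gamma 1 rose and 5 fell. Bst2, tetherin, was at 3.49, 3.45, 3.82 and 3.98 in the graft and at 1.84, 1.95, 1.18, 1.29 and 2.00 in the intestine, and fell by 2.04 (SE 0.28, limma adjusted p = 7.22e-06). Tap2, a peptide transporter of antigen presentation, was at 4.05, 4.30, 4.64 and 4.80 in the graft and at 2.85, 2.64, 3.10, 2.64 and 2.86 in the intestine, and fell by 1.63 (SE 0.22, adjusted p = 4.90e-06). Both groups were narrow and apart for these 2 genes. The RNA sensor Ifih1 went the other way: unmeasured in the graft, it was at 1.23, 0.11, 0.95, -2.61 and 1.75 in the intestine, at least 1.992-fold higher (adjusted p = 0.000795), with intestine 4 the only array that lacked it.

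Of 16 annexins, S100 proteins and galectins 8 rose and 1 fell. Anxa2 was at 4.21, 4.80, 3.98 and 4.46 in the graft and at 5.79, 5.74, 6.52, 5.72 and 6.41 in the intestine (difference 1.68, SE 0.23, limma adjusted p = 6.14e-06), and Lgals3, galectin-3, rose by 2.23 (SE 0.39, adjusted p = 0.000121). Anxa1 fell. It was at 5.30, 4.67, 3.74 and 4.35 in the graft and at 0.60, 1.86, -0.51, 0.61 and 2.06 in the intestine (fell by 3.59, SE 0.73, adjusted p = 0.000509), and it is abundant in neutrophils, whose markers fell too. Among 7 tested killer lectin-like receptors 2 rose and 3 fell. Klrc1, which encodes NKG2A, was at -0.05, -0.14, -1.77 and 0.07 in the graft and at 2.45, 1.52, 3.91, 1.37 and 2.88 in the intestine, a rise of 2.90 (SE 0.42, adjusted p = 1.22e-05). Klra4, an Ly49 receptor of NK cells from a family of close copies, fell by 2.25 (SE 0.57, adjusted p = 0.00362).

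Against the mean of blood, liver and lung on day 4, few genes differed. In the same fit 63 of 9446 genes were higher in the intestine (0.667%) and 344 lower (3.64%). The graft cancels here, so this tests whether the change from graft to intestine differed from the mean change to the other sites. With slide as a fixed block on the 20 day 4 arrays, 1 gene was higher and 5 lower. Of the 27 genes called here and named for this comparison, Cxcl10 kept its call (adjusted p = 0.026) and the other 26 lay between 0.0529 and 0.0997, so the p-values below hold only without that block. Counts also depended on single arrays. Without intestine 2 limma called 0 genes in either direction (181 higher and 1178 lower at an unadjusted p under 0.05), without intestine 1 there were 5 and 48, without intestine 4 there were 15 and 29, and without intestine 3 or 5 there were 139 and 1201 or 275 and 1324. Leaving out liver 5 gave 134 and 794, and lung 4 gave 816 lower genes. Without intestine 4 and 5 together there were 159 and 367. Of the 63 genes 27, and of the 344 genes 198, had the intestine on the same side on all 5 slides.

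Against the other sites 0 of 13 cytotoxic genes and 0 of 12 inhibitory receptors were called. Over all genes 0.667% were higher and 3.64% lower, so lists of this size would hold few calls in any case. Without intestine 5, 2 cytotoxic genes were lower, and 4 inhibitory receptors were lower and 1 higher. Of all 9446 genes 275 were then higher and 1324 lower. The differences for Gzmb (-0.55, SE 0.54, limma adjusted p = 0.583), Ifng (-0.01, SE 0.57, adjusted p = 0.994), Icos (-0.02, SE 0.39, adjusted p = 0.982) and Lag3 (-1.12, SE 0.35, adjusted p = 0.0645) were not called. For Ifng the standard error leaves room for a difference of about 1 in either direction. Part of the cell cycle genes were lower in the intestine than at the other sites. Of 38 G1 and S genes 0 were higher and 10 lower (median -0.77), and of 31 mitosis genes 0 were higher and 10 lower (median -1.06), where the median over all genes was -0.15. Without intestine 4 only 1 gene of each list was still lower, and without intestine 5 there were 23 and 26. Other lists moved beside them: the median of 17 T cell identity genes was -0.45, with 0 called and 5 lower without intestine 5, and 6 of 9 Paneth markers were higher. Their part in the cell cycle counts was not tested. Kif22 was at differences of -1.92, -3.16, -2.17, -1.94 and 0.25 from the other sites on the slides of intestine 1 to 5, above 0 on the last alone (difference -1.79, SE 0.42, adjusted p = 0.0237). Ccne1, cyclin E1, was lower on 4 of the 5 slides (difference -2.08, adjusted p = 0.0196), and E2f2, an activator of S phase genes, on all 5 (difference -1.80, adjusted p = 0.0247).

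Some of the genes higher than at the other sites stood out on every slide. Ramp3, which pairs with the calcitonin-like receptor to bind adrenomedullin, was at -1.002, 0.32, 0.35 and 0.79 in the graft and at 4.72, 4.28, 5.63, 2.74 and 3.44 in the intestine. It was higher in the intestine on all 5 slides, and its difference from the other sites was 2.88 (SE 0.65, limma adjusted p = 0.0199). Crem, a cAMP-responsive factor, was not well above background in the graft and was at 2.49, 1.81, 3.26, 1.48 and 2.74 in the intestine. It exceeded the other sites on all 5 slides by a mean of 1.78 (SE 0.40, adjusted p = 0.021) and the graft at least 8.364-fold (adjusted p = 1.56e-06). Nfkbie, an inhibitor of NF-kB, was higher than at the other sites by 1.51 (SE 0.41, adjusted p = 0.0398), and Cd83, a surface marker of activated lymphocytes and dendritic cells, by 2.29 (SE 0.57, adjusted p = 0.0279), both on all 5 slides. Cd83 was not called against the graft (difference 1.57, SE 0.74, adjusted p = 0.105). Cxcl10, a chemokine of interferon-exposed tissue, was at 3.86, 4.14, 1.43, 1.57 and 1.71 in the intestine, highest on the arrays with macrophage transcripts. It was higher than at the other sites by 2.22 (SE 0.61, adjusted p = 0.0405) and overlapped the graft, where it lay between 1.22 and 1.89. Ckb, creatine kinase B, and Slc39a4 were each higher on all 5 slides, by 1.32 (SE 0.23, adjusted p = 0.00919) and 1.08 (SE 0.30, adjusted p = 0.0423, and 0.148 without intestine 4).

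The genes lower than elsewhere included the integrin chain Itga4. It differed from the other sites by -1.50, -2.16, -0.80, -2.83 and 0.07 on the slides of intestine 1 to 5 (difference -1.44, SE 0.31, limma adjusted p = 0.0169). Intestine 5 was thus the exception. Zbtb32, a repressor expressed by proliferating effector cells, rose by 3.08 against the graft (SE 0.45, adjusted p = 1.48e-05), and was nevertheless lower than at the other sites by a difference of -1.64 (SE 0.35, adjusted p = 0.0169). Defensin genes headed the genes higher than elsewhere, with Defa23 at a difference of 4.97 (SE 1.11, adjusted p = 0.0196). They were high on 4 slides and lower than elsewhere on that of intestine 5. Igh-VJ558, an immunoglobulin heavy chain segment, was at 7.57, 7.79, 7.50 and 7.58 in the graft, at 7.42, 8.02, 8.53 and 7.71 on intestine 1 to 4 and at -0.88 on intestine 5 (difference from the other sites 4.77, SE 1.12, adjusted p = 0.0237). It was not called against the graft, and such segments are near-identical copies. Jchain, a gene of plasma cells, was at 5.72, 5.37, 4.52, 2.48 and -3.73 on intestine 1 to 5, lowest on the same array.

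**Figure D5:**
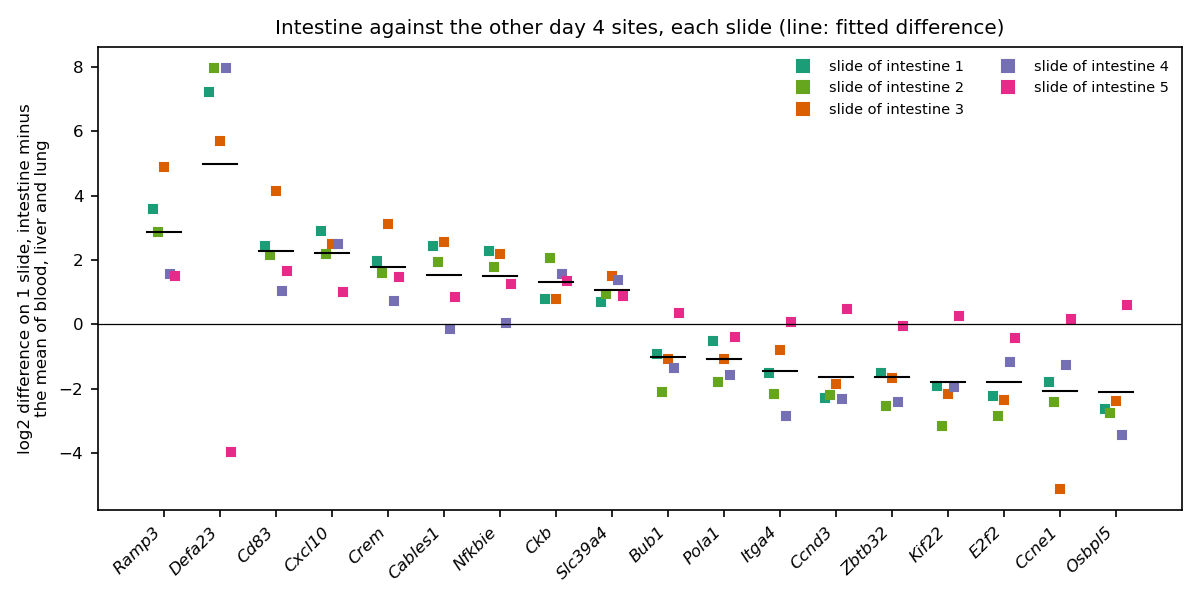
Difference between the intestine array and the mean of blood, liver and lung on the same slide (log2), for 18 genes, with a colour per slide and a line at the fitted difference. Ramp3, Cd83, Cxcl10, Crem, Nfkbie, Ckb and Slc39a4 are above 0 on all 5 slides, and for Itga4 and Kif22 the slide of intestine 5 lies above 0 while the other 4 lie below.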

How the data were processed

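RNA of magnetically selected CD45.1 cells (300 pg, amplified in 2 linear rounds) was hybridised to 24 one-colour Agilent arrays. The deposited scanner files give background-subtracted intensity per spot (processed signal) from Feature Extraction, version 9.5.1.1 per the file headers and 10.7 per the submitters' processing notes. The authors' deposited table holds log2 values close to median-centred quantile values (lowest correlation 0.987), with column medians of -0.03 to 0.028; it was used as an alternative.

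Control spots were left out, spots of a probe averaged, log2 taken and each array's 75th percentile subtracted. A probe was tested if well above background on all or all but 1 array of a group (11282 probes), and the brightest probe stood for each of 9446 genes. Names came from RefSeq tables by accession for 27592 of 39429 probes, by symbol or synonym for 3492 and 393, and stayed the file's own for 1336. Saturation was rare: 0 gene spots on intestine arrays and at most 4 on a graft array. One mean per group was fitted with limma 3.58.1 in R 4.3.3 and p-values adjusted by Benjamini-Hochberg. Replicate numbers are not stated to pair graft with intestine, and the main fit has no pairing. Deviations of same-numbered arrays correlated at 0.0942, 0.107, -0.124 and -0.373, which cannot show whether they are paired.

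Genes were named by rule: the 10 largest changes each way without overlap and measured in both groups; the 10 highest bounds each way; per list, at most 6 called members plus those against the list's majority; the 10 largest differences from the other sites each way; and T cell genes as label checks. Members and lists were chosen with earlier results of these data known. The text gives those that its comparisons turn on, and some named genes are not reported here. The procedure was tested on simulated data with independent normal noise and the same spread in every group. The real groups differ in spread and their arrays share slides, so that test cannot show that the p-values hold here. A bound sets the mean of the measured group against the lowest measurable signal of the arrays of the other.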

Additional observations from a re-analysis of the deposited data

Results flagged for a closer look

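Of 336 groups of 4 or 5 arrays examined, 27 held an array far from the others, by the ratio of its gap from the nearest array to the whole range; chance gives about 1 in 20. Graft 2 was the highest of its group, with the ratio in parentheses, for Dut (0.948), Kif22 (0.869) and Nfe2l2 (0.86). Graft 3 was the highest for Perp (0.914). Graft 3 was the lowest for Il10ra (0.923) and Klrc1 (0.883). Graft 4 was the highest for Gzmb (0.942), Klf3 (0.833) and Cd3e (0.911). Intestine 3 was the highest for the summed level of helper T cell markers (0.724). Intestine 4 was the highest for Fcmr (0.764) and the summed level of platelet markers (0.762). Intestine 4 was the lowest for Havcr2 (0.712), Litaf (0.75) and Nfkbie (0.725). Intestine 5 was the highest for Il16 (0.901), Pdk1 (0.802), Cyc1 (0.777), S100a8 (0.797), Camp (0.785) and Hmgb3 (0.864). Intestine 5 was the lowest for Actn1 (0.823), Idi1 (0.76), Igh-VJ558 (0.882), Spib (0.723), Retnlg (0.743) and Hba-a1 (0.715). Dut and Perp were well above background on no graft array, and Actn1, Fcmr, Spib, Retnlg and Hba-a1 on no intestine array, so the order of arrays there is that of values below background.

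For 27 of the named genes the change from graft to intestine differed from the mean change to blood, liver and lung by limma's test of that difference. It was larger (log2) for Defa24 (5.16), Defa3 (5.09), Defa23 (4.97), Igh-VJ558 (4.77), Reg3g (3.83), Lgals4 (3.55), Ramp3 (2.88), Cd83 (2.29), Cxcl10 (2.22), Crem (1.78), Cables1 (1.53), Nfkbie (1.51), Nfe2l2 (1.41), Ckb (1.31) and Slc39a4 (1.08). It was lower for Osbpl5 (-2.11), Ccne1 (-2.08), Tmem229b (-1.84), E2f2 (-1.80), Kif22 (-1.79), Traf3ip3 (-1.74), Zbtb32 (-1.64), Ccnd3 (-1.64), Itga4 (-1.44), Phf21a (-1.32), Pola1 (-1.07) and Bub1 (-1.01).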

How the results depend on the processing

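In the comparison with the graft, 114 of 132 named and called genes were called in all 41 alternatives, and 131 kept their direction; 17 lost the call in at least 1. The exception in direction was Tnfrsf9, at 1.49 (limma adjusted p = 0.000645) with the mean of its probes and 6.22 (4.41e-09) without probes that hold a run, where the remaining probe was unmeasured in the graft, against -3.39 to -3.09 when 1 array was left out. Tnf, not called, was at 0.57 (adjusted p = 0.0452) with array weights, which gave 3184 higher and 2250 lower genes. Lower genes numbered 1940 and 2235 with scaling on detected probes (75th percentile and median). Leaving out 1 array gave 1729 to 2489 higher and 922 to 1333 lower genes. The replicate number as a block gave 2017 and 1231 against the graft and 57 and 353 against the other sites. The numbers are not stated to pair a graft array with an intestine array, and at day 4 they are the slides. The medians of 18 of 47 lists changed sign in some alternative.

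Against the other sites, 0 of 27 named and called genes kept the call in all 42 alternatives, and all 27 kept their direction. The 63 higher and 344 lower genes became 0 to 275 and 0 to 1324 when 1 array was left out. They became 26 and 56 with normexp, 29 and 12 with the 75th percentile of detected probes, 29 and 108 without lung 4 and intestine 4, 760 and 2464 with array weights, 95 and 604 with slide as a random block, 29 and 150 on the day 4 arrays alone, and 1 and 5 with slide as a fixed block there. With 1 variance per group limma called 0 and 2 (192 and 1189 at an unadjusted p under 0.05). Higher genes were 159 without intestine 4 and 5. Lower genes were 84 with the median of detected probes, 215 with quantile normalisation, 213 in the authors' deposited table, 141 without a filter and 195 at 2-fold or more. The cause was not tested. The 5 and 4 arrays, the slide that holds only graft and the low signal of many probes limit all of these values.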

Other observations

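Several genes outside the lists had some of the largest changes. Rilpl2, a regulator of ciliary membrane content, was at -0.12, -0.15, 0.09 and 0.77 in the graft and at 4.06, 3.51, 4.80, 2.09 and 4.52 in the intestine, with no overlap (difference 3.65, SE 0.41, limma adjusted p = 5.32e-07). Cables1, which links cyclin-dependent kinases to other kinases, was well above background on none of the graft arrays and was at 2.96, 2.64, 3.67, 1.28 and 2.22 in the intestine, at least 9.604-fold higher (adjusted p = 1.68e-06). Lyl1, a factor of blood progenitors and B cells, was at 4.12, 4.08, 3.44 and 3.73 in the graft and at -0.09, 1.00, -0.98, 0.30 and -1.30 in the intestine, and fell by 4.06 (adjusted p = 3.73e-07). Rnu2-10, a U2 spliceosomal RNA, was at 5.65, 6.04, 6.43 and 5.96 in the graft and at 0.01, 0.90, 0.55, -0.39 and 1.53 in the intestine (fell by 5.50, adjusted p = 7.63e-07).

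Nfe2l2, the oxidative stress factor NRF2, was at 0.86, 1.08, 0.87 and 0.84 in the graft and at 2.76, 3.43, 0.02, 1.95 and 2.10 in the intestine. It was higher on 4 intestine arrays and lower on intestine 3, and was not called against the graft (difference 1.14, limma adjusted p = 0.0938). Osbpl5, Tmem229b and Traf3ip3 were each at graft-like levels on intestine 5 and lower on the other 4. Osbpl5, a lipid transfer protein whose probe holds 5 G in a row, was at 3.17, 2.65, 2.96 and 3.54 in the graft and at 0.98, 0.78, 1.53, 0.24 and 3.79 in the intestine (fell by 1.62, adjusted p = 0.015, and 0.0503 without graft 4).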
